A study of Homo sapiens with 9 samples.

Results

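The proteasome genes of HCT116 colon cancer cells were examined in stable cells induced to express either isoform of the tazarotene-induced gene 1 (TIG1, gene symbol RARRES1). Genes were taken by name, as those whose symbol begins with PSMA, PSMB, PSMC, PSMD, PSME, PSMF or PSMG and a digit in the array annotation. This rule used no measured value and gave 49 genes on 96 probe sets. Of these, 41 encode subunits, assembly chaperones or regulators of the proteasome, and 39 of the 41 passed the filter on low intensities, out of 13352 genes in the whole series whose brightest probe set passed it. The other 8 genes share only the name. Each gene is given on its brightest probe set, the one with the highest mean log2 intensity over the arrays.

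The proteasome is the protease that breaks down proteins marked with ubiquitin chains. Its 20S core is a barrel of outer alpha rings, which gate the entry, and inner beta rings, of which the subunits PSMB5, PSMB6 and PSMB7 carry the constitutive catalytic sites. The 19S cap binds ubiquitin, removes the chain and unfolds the substrate with a ring of ATPases, and dedicated chaperones put core and cap together. When the proteasome is inhibited, the transcription factor NFE2L1 is known to raise its subunit genes together through antioxidant response elements in their promoters. Proteasome inhibitors such as bortezomib, which bind PSMB5, are used as cancer drugs.

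All cells carried the pSwitch plasmid of the GeneSwitch system, which encodes a transactivator that mifepristone (MFP) activates, and all received 5 nM MFP for 24 h. TIG1A cells also carried an inducible plasmid for the longer isoform (pTIG1A-V5), TIG1B cells one for the shorter isoform (pTIG1B-V5), and control cells the plasmid without insert (pGene/V5). The labels give the tags of both isoforms as Myc and His, whereas the methods describe a vector with V5 and His. Each group was 1 stable clone, selected with hygromycin and zeocin but, by the methods, plated without them for the experiment, so an effect of the isoform and a difference between clones cannot be told apart. Total RNA of 3 samples from each clone was hybridised to 9 Affymetrix HG-U133 Plus 2.0 arrays, and values are linear signal intensities scaled to the same trimmed mean of 500 on every array. In RNA of a whole culture, fewer cells that express a gene and less RNA per cell cannot be told apart.

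RARRES1 had intensities of 56400, 41200 and 45690 in TIG1A cells, 27080, 19540 and 18600 in TIG1B cells, and 57.9, 48.8 and 4.80 in control cells. The induced gene was thus far brighter on all 6 arrays of the TIG1 lines than on the control arrays, where it lay below the array median. Of 8 epithelial markers, 7 lay at or above the array median on all 9 arrays, and the eighth, CLDN3, on 8. Of the markers of other cells, 2 of 5 for leukocytes, 1 of 4 for fibroblasts and 1 of 3 for endothelium passed the filter. Those that passed were CD79A, CD3E, COL1A1 and PECAM1, and PTPRC, CD14, COL3A1, CDH5 and VWF were among those that did not. CD79A (422 to 743), PECAM1 (77.4 to 222) and COL1A1 lay at or above the array median on all 9 arrays, and CD3E on 3. COL1A1, a collagen gene of fibroblasts, averaged 1510 in TIG1A cells, 901 in TIG1B cells and 559 in control cells, and its part in the results below was not tested. The ratio of 3' to 5' signal of GAPDH was 1.005 and 1.006 on the arrays numbered 1 of TIG1A and TIG1B cells, against 0.899 to 0.950 on the other 7 arrays, but that of actin was the lowest of all 9 on the same arrays, at 1.135 and 1.117 against 1.152 to 1.275. Both TIG1 lines were compared with the same 3 control arrays, so their differences from control are not independent of each other.

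The 250 bases before the start of the gene are shown for the 4 genes that follow, because they include the member called in TIG1A cells (PSMD1) and the members with the highest (PSME1) and lowest (PSMG1) differences there, beside PSMD3, which lay below the control arrays in both lines. Sequences are from RefSeq on GRCh38.p14, 5' to 3' on the strand of the gene, and end at the base before the start that the RefSeq table uses. Capitals mark a match to TGACNNNGC, the core of the antioxidant response element, searched on both strands (GCNNNGTCA on the other).
PSMD1, chr2:231056617-231056866, plus strand: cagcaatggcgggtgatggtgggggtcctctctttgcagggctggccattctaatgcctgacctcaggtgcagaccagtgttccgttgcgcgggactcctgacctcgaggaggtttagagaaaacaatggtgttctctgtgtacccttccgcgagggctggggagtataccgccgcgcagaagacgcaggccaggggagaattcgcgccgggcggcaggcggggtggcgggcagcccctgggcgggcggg
PSME1, chr14:24135944-24136193, plus strand: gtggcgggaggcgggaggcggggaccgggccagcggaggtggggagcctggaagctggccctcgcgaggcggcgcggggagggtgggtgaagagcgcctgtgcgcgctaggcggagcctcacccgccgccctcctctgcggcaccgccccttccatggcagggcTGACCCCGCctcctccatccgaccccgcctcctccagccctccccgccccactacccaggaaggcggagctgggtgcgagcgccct
PSMD3, chr17:39980557-39980806, plus strand: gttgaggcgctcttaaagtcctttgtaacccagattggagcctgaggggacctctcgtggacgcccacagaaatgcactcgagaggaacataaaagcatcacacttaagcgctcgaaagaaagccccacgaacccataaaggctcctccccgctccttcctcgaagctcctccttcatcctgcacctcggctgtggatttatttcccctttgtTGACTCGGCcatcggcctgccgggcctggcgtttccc
PSMG1, chr21:39183452-39183701, minus strand: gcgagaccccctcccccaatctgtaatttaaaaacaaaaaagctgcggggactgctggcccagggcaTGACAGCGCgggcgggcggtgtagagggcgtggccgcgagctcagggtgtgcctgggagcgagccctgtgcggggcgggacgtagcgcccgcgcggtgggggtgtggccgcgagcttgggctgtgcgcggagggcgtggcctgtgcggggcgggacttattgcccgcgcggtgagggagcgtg
The match began 86 bases before the start of PSME1, 37 before that of PSMD3 and 183 before that of PSMG1, and these letters were not in the PSMD1 window. For PSMG1 the start used lies inside the gene span given below (39174769 to 39183514), so part of its window overlaps that span. Among the other proteasome genes searched, the windows of PSMA1, PSMC2, PSMD6 and PSMG4 also lay wholly or partly inside their gene spans. None of these windows held a match. A promoter was matched for 35 of the 41 proteasome genes, and 9 of the 35 (25.7%) held the core, against 3013 of 27305 promoters of all genes (11%). The other 6 genes with a match were PSMB3, PSMD5, PSMD9, PSMD12, PSME4 and PSMG2. The median log2 difference of the 9 genes with a match, against control cells, was 0.06 in TIG1A and 0.01 in TIG1B cells, and that of the 24 tested genes without one was 0.16 in both. A match is a stretch of letters and not a bound site.

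In TIG1A cells 1 of the 39 proteasome genes, PSMD1, rose against control cells and none fell after adjustment of limma's test over all probe sets (background over 13352 genes 3.39% rose, 3.62% fell and 7.01% changed either way). In TIG1B cells none of the 39 passed in either direction (background 0.637% rose, 1.21% fell and 1.84% either way). Between TIG1A and TIG1B cells none passed either (background 0.359%, 0.225% and 0.584%). Before adjustment, p lay under 0.05 for 4 genes higher and 2 lower in TIG1A cells (background 27.7% either way), for 4 higher and 2 lower in TIG1B cells (19.9%) and for 1 higher and 1 lower between the lines (15.0%). These shares of the 39 genes lay below or near those of all genes. On the brightest probe set no proteasome gene differed by 2-fold or more in any of the 3 comparisons. Dimmer probe sets of PSME3 and PSMD4, given below, did. Leaving out control array 1 gave 4 calls in TIG1A cells (PSMD1 and PSME1 higher, PSMD3 and PSMG1 lower) and 2 in TIG1B cells (PSMD3 and PSMG3 lower), and leaving out any other array gave none.

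The differences of the 39 genes were small and mostly of 1 sign against control cells. In TIG1A cells 30 of the 39 lay above control cells (76.9%), against 47.8% of all genes, with a median log2 difference of 0.14 against -0.03 for all genes. In TIG1B cells 31 lay above control cells (79.5%), against 48.9% of all genes, with medians of 0.13 and -0.01. Proteasome genes are bright on these arrays, and the 1577 genes with a mean log2 intensity of 12 or more were themselves shifted, with 61.1% above control cells in TIG1A cells (median 0.09) and 65.3% in TIG1B cells (median 0.10). The 31 proteasome genes as bright as that had medians of 0.16 and 0.13 in the 2 lines. The lean was weaker over all 68 tested probe sets of the 39 genes, dim ones included. Of these, 61.8% lay above control cells in TIG1A cells (median 0.10) and 67.6% in TIG1B cells (median 0.11), shares near those of the bright genes. Between TIG1A and TIG1B cells 18 of the 39 genes lay higher in TIG1A cells (46.2%, against 50.3% of all genes), with a median of -0.01. These shares and medians are descriptions, without a test.

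The spread among the members was narrower than over all genes. The middle 50% of the 39 differences spanned 0.23 in TIG1A cells and 0.27 in TIG1B cells against control cells, compared with 0.70 and 0.58 over all genes, and 0.46 and 0.33 over the bright genes. Differences of more than 0.5 on the log2 scale were seen for 5 genes in TIG1A cells (background 34.3%), 4 in TIG1B cells (27.9%) and 2 between the lines (22.6%). As shares these were 12.8%, 10.3% and 5.13% of the 39 members. Among the 31 members with a mean log2 intensity of 12 or more they were 16.1%, 6.45% and 3.23%. Of the bright genes, 17.9%, 9.26% and 7.8% differed by as much. The 95% interval of the difference lay within 2-fold in both directions for 34 genes in TIG1A cells, 36 in TIG1B cells and 37 between the lines, so these data bound most members to less than a doubling or halving at 3 arrays per group. The exceptions were PSMB10, PSMD3, PSMG1, PSME1 and PSME3 in TIG1A cells, PSMB10, PSMD3 and PSMG3 in TIG1B cells, and PSMG1 and PSMG3 between the lines.

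**Figure D1:**
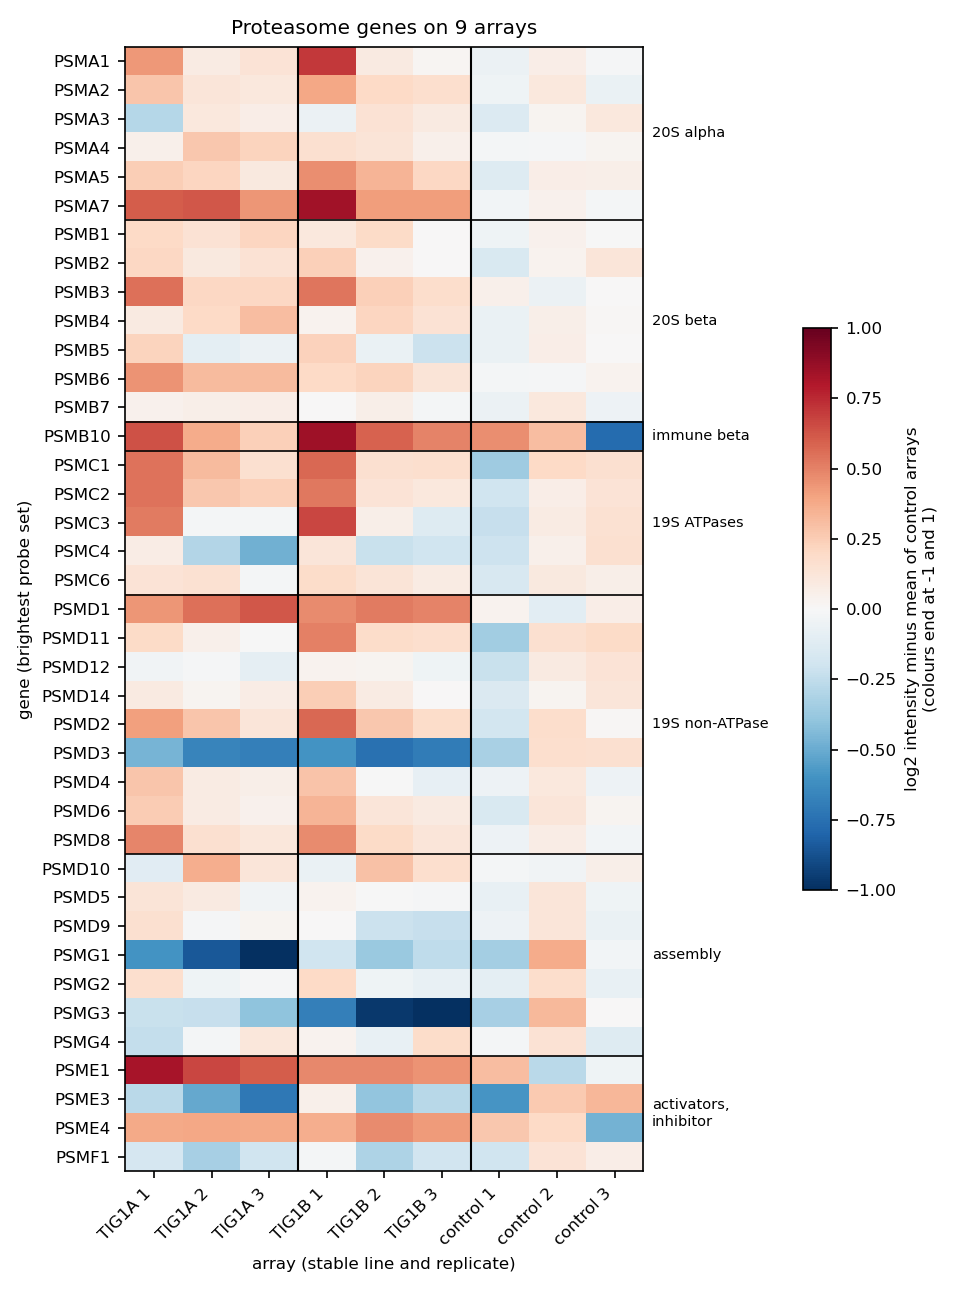
Log2 intensity of the 39 proteasome genes minus the mean of the 3 control arrays, in colour, with genes grouped by role down the page and the 9 arrays of TIG1A, TIG1B and control cells across. Most squares are pale, PSMD3 is blue in both TIG1 lines, PSMG1 is bluest in TIG1A cells and PSMG3 in TIG1B cells.

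Counted by the separation of the arrays, a larger share of the members than of all genes lay above control cells and a smaller share below. All 3 arrays lay above all 3 control arrays for 14 of the 39 genes in TIG1A cells and below them for 2 (background 16.3% above, 17.9% below and 34.2% either way). In TIG1B cells 12 lay above and 2 below (background 12.2%, 14.6% and 26.8%). Of the 1577 bright genes, 485 were above all control arrays for TIG1A and 368 for TIG1B cells. Of the members, PSMA2, PSMA4, PSMA5, PSMA7, PSMB3, PSMB6, PSMD1, PSMD8, PSME1 and PSME4 lay above in both lines and PSMD3 below in both, but both lines were set against the same control arrays. Between TIG1A and TIG1B cells, TIG1A arrays lay above for 3 genes, PSMB6, PSMG3 and PSME1, and below for PSMG1 (background 14.2%, 14.2% and 28.4%).

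**Figure D2:**
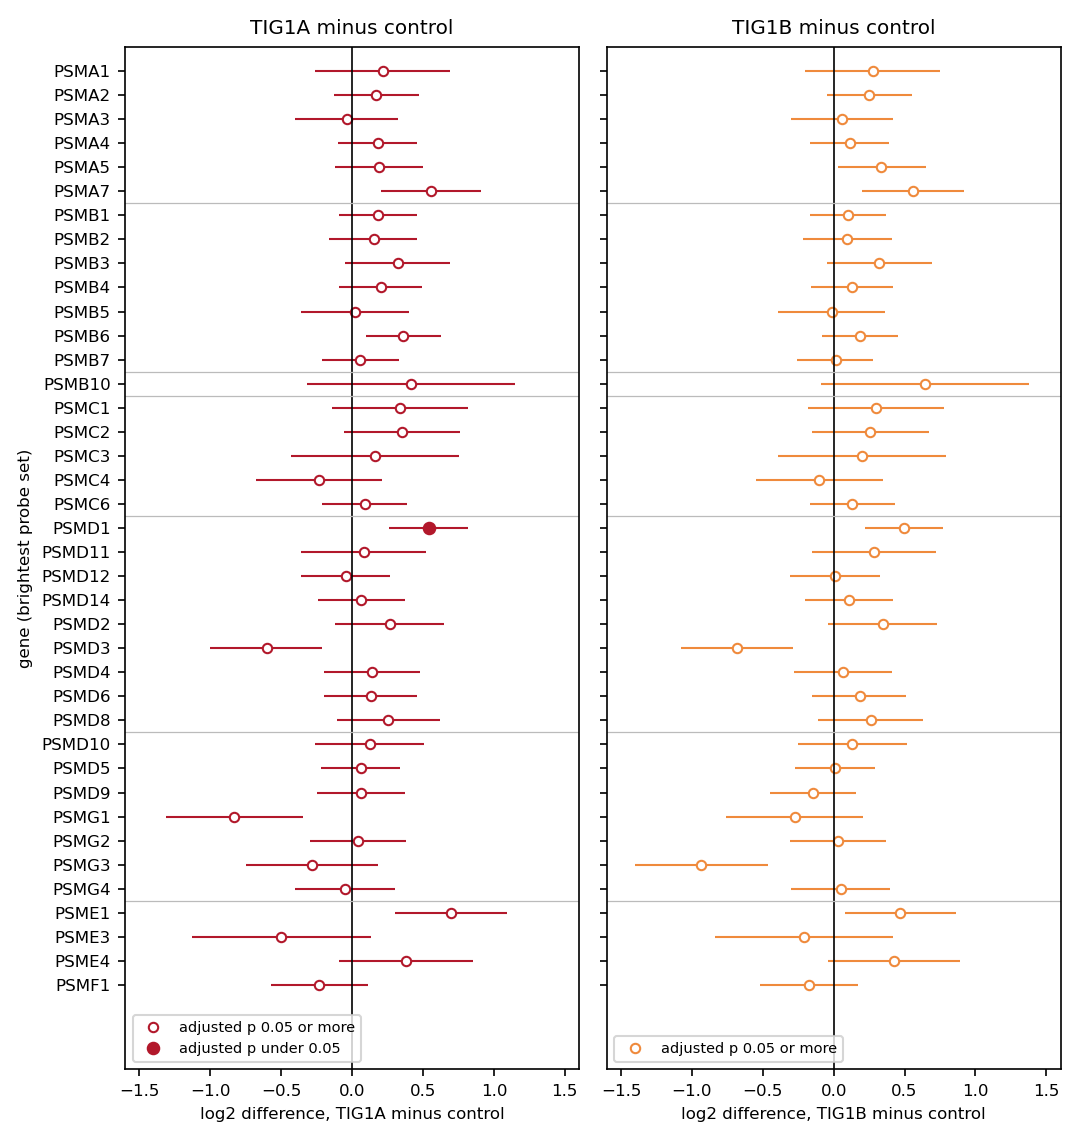
Log2 difference of each of the 39 proteasome genes, TIG1A minus control on the left and TIG1B minus control on the right, with 95% intervals from limma as lines; filled points have an adjusted p under 0.05. PSMD1 in TIG1A cells is the single filled point, and most points lie slightly right of 0.

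The alpha ring of the core, which gates the entry of substrates, had 6 measured genes, of which none passed the test. Of these, 5 lay above control cells in TIG1A cells (median log2 difference 0.185) and all 6 in TIG1B cells (median 0.26). PSMA7, whose product is an alpha subunit (chromosome 20, 62136733 to 62143394), had intensities of 20420, 20620 and 18260 in TIG1A cells, 24040, 17960 and 17930 in TIG1B cells and 13150, 13860 and 13270 in control cells. All arrays of both TIG1 lines were above all control arrays. The log2 difference of PSMA7 was 0.56 in both TIG1A and TIG1B cells against control cells (SE 0.15 in each, adjusted p = 0.0738 and 0.115). Its dimmer probe set gave 0.39 and 0.31, of the same sign, with adjusted p of 0.155 and 0.312. The name of the brighter one carries the suffix _x_at, which marks probes that may also bind other transcripts. The brightest probe sets of PSMA1, PSMD4 and PSME3 carry the same suffix.

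PSMA5, another alpha subunit, read 8792, 8630 and 7965 in TIG1A cells, 10260, 9399 and 8567 in TIG1B cells and 6785, 7793 and 7747 in control cells. Neither line overlapped control cells, with log2 differences of 0.19 (adjusted p = 0.42) in TIG1A cells and 0.34 (adjusted p = 0.234) in TIG1B cells. PSMA1, PSMA2 and PSMA4 differed by 0.17 to 0.22 in TIG1A cells and 0.11 to 0.275 in TIG1B cells, and PSMA3 by -0.04 and 0.06. Dimmer probe sets of PSMA1 gave 0.11 with the suffix _x_at and -0.025 without it in TIG1A cells. In TIG1B cells they gave 0.17 and 0.09. PSMA8, the testis form that can replace PSMA7, lay below the median of every array, at 2.40 to 48.2, and was not tested.

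The 7 constitutive beta subunits all lay above control cells in TIG1A cells, by 0.02 to 0.36 on the log2 scale (median 0.185), and 6 of them in TIG1B cells (median 0.10), and none passed the test. PSMB6, the caspase-like subunit (chromosome 17, 4796164 to 4798495), had intensities of 17460, 15980 and 15980 in TIG1A cells, 14730, 14970 and 14030 in TIG1B cells and 12620, 12700 and 13090 in control cells. The 3 groups did not overlap, in the order TIG1A, TIG1B, control. The difference from control cells was 0.36 (SE 0.11, adjusted p = 0.102) in TIG1A cells and 0.19 (adjusted p = 0.428) in TIG1B cells, and that of TIG1A from TIG1B cells 0.18 (adjusted p = 0.574).

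The other catalytic subunits were close to control cells. PSMB5, the chymotrypsin-like subunit, read 12780, 10260 and 10530 in TIG1A cells, 12900, 10510 and 9472 in TIG1B cells and 10460, 11510 and 10990 in control cells. The groups overlapped, and the log2 difference was 0.02 (95% interval -0.36 to 0.40) in TIG1A cells and -0.01 (-0.39 to 0.36) in TIG1B cells. PSMB7, the trypsin-like subunit, read 17100, 17230 and 17400 in TIG1A cells, 16600, 17280 and 16330 in TIG1B cells and 15920, 17840 and 16040 in control cells, again overlapping. Its differences were 0.06 (95% interval -0.21 to 0.33) and 0.01 (-0.26 to 0.28) in the 2 lines. Among the subunits without a catalytic site, PSMB3 had the highest difference, at 0.32 in both lines (adjusted p = 0.253 in TIG1A and 0.333 in TIG1B cells), and PSMB1, PSMB2 and PSMB4 lay between 0.096 and 0.20.

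Interferon can replace the catalytic subunits with immune forms that change the peptides made for antigen presentation. PSMB8, the immune form of PSMB5, lay below the array median on all 9 arrays, at 2.95 to 6.77, and was not tested. PSMB10, the immune form of PSMB7 (chromosome 16, 67934506 to 67936850), had intensities of 1544, 1284 and 1174 in TIG1A cells, 1790, 1494 and 1398 in TIG1B cells and 1370, 1229 and 581.9 in control cells. TIG1B arrays lay above all control arrays and TIG1A arrays overlapped them, with 1 control array much lower than the other 2. The log2 differences of 0.42 in TIG1A cells (95% interval -0.32 to 1.15, adjusted p = 0.453) and 0.64 in TIG1B cells (-0.09 to 1.38, adjusted p = 0.329) did not pass. They rested on the lowest control array, without which they were 0.03 in TIG1A cells and 0.258 in TIG1B cells. PSME1, the alpha subunit of the interferon-inducible PA28 activator (chromosome 14, 24136194 to 24138962), had intensities of 9497, 8523 and 8154 in TIG1A cells, 7504, 7516 and 7326 in TIG1B cells and 6672, 4455 and 5219 in control cells. Again the 3 groups did not overlap, in the order TIG1A, TIG1B, control. PSME1 gave the highest difference of all members in TIG1A cells, 0.70 or 1.62-fold (SE 0.17, adjusted p = 0.0537), and 0.47 (adjusted p = 0.197) in TIG1B cells, and TIG1A exceeded TIG1B cells by 0.225 (adjusted p = 0.629). IRF1, a transcription factor of the interferon response, differed by 0.54 in TIG1A cells (adjusted p = 0.216), whose arrays overlapped those of control cells, and by 0.03 in TIG1B cells (adjusted p = 0.959).

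The other regulators of the core had differences of both signs. PSME4 (PA200, a nuclear activator) read 3012, 3026 and 3008 in TIG1A cells, 2988, 3222 and 3117 in TIG1B cells and 2795, 2666 and 1669 in control cells. Both lines lay above control cells, by 0.38 (adjusted p = 0.286) and 0.42 (adjusted p = 0.315), and without control array 3, the lowest, by 0.144 and 0.187. The other probe sets of PSME4 gave -0.26 and 0.38 in TIG1A cells and -0.16 and 0.58 in TIG1B cells, and none passed. PSME3 (PA28gamma, another nuclear activator, chromosome 17, 42833397 to 42843760) read 4433, 3754 and 3254 in TIG1A cells, 5548, 4065 and 4405 in TIG1B cells and 3547, 6404 and 6741 in control cells. The groups overlapped through control array 1, and the differences were -0.50 (adjusted p = 0.297) in TIG1A cells and -0.21 (adjusted p = 0.723) in TIG1B cells.

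The dimmest of the 4 probe sets of PSME3 read 250.1, 297.8 and 167.7 in TIG1A cells, 304.4, 372.6 and 346.5 in TIG1B cells and 488.1, 866.4 and 629.1 in control cells. It was the only 1 of the 68 tested probe sets of proteasome genes that fell in TIG1A cells, by 1.47 on the log2 scale (SE 0.27, adjusted p = 0.028), and differed by -0.92 (adjusted p = 0.137) in TIG1B cells. The remaining probe sets of PSME3 gave -0.765 (adjusted p = 0.0727) and -0.504 (adjusted p = 0.293) in TIG1A cells, so all 4 had the same sign. PSMF1 (PI31, which inhibits the core in vitro) differed by -0.23 in TIG1A cells and -0.17 in TIG1B cells.

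The ATPases of the cap, which pull and unfold substrates, had 5 measured genes and none passed. PSMC2 read 17700, 14630 and 14280 in TIG1A cells, 17460, 13300 and 13070 in TIG1B cells and 10540, 12690 and 13310 in control cells. TIG1A arrays lay above all control arrays and TIG1B arrays overlapped them, with array 1 the brightest in both TIG1 lines and the dimmest in control cells. The differences of PSMC2 were 0.35 (adjusted p = 0.261) and 0.26 (adjusted p = 0.48). PSMC1 differed by 0.34 and 0.30, PSMC6 by 0.09 and 0.13, and PSMC3 by 0.16 and 0.20 with an SE of 0.26. PSMC4 alone among the 5 lay below control cells, with differences of -0.23 in TIG1A cells and -0.10 in TIG1B cells.

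Among the 9 other cap subunits, PSMD1 rose in TIG1A cells. PSMD1 (Rpn2, a large scaffold of the cap, chromosome 2, 231056867 to 231172827) had intensities of 8656, 9332 and 9785 in TIG1A cells, 8816, 9120 and 8954 in TIG1B cells and 6517, 5914 and 6671 in control cells. All arrays of both lines lay above all control arrays. The log2 difference was 0.54 in TIG1A cells, or 1.45-fold (SE 0.12, adjusted p = 0.0434), and 0.50, or 1.41-fold, in TIG1B cells (SE 0.12, adjusted p = 0.0883), and TIG1A and TIG1B cells differed by 0.045 (adjusted p = 0.915). The call in TIG1A cells was lost when any 1 of 8 arrays was left out (adjusted p of 0.0571 to 0.129 in limma's refits), control array 1 being the exception.

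A second, dimmer probe set of PSMD1 went the other way. It read 8304, 7490 and 7211 in TIG1A cells, 6338, 6583 and 6695 in TIG1B cells and 7427, 8682 and 8415 in control cells. Its arrays overlapped between TIG1A and control cells, and TIG1B arrays lay below both. Its differences were -0.09 (adjusted p = 0.69) in TIG1A cells and -0.32 (adjusted p = 0.238) in TIG1B cells, opposite in sign to the brighter probe set, and with both averaged the difference in TIG1A cells was 0.224 (adjusted p = 0.198). Where in the transcript either probe set lies was not analysed here.

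PSMD3 (Rpn3, a lid subunit, chromosome 17, 39980807 to 39997959) had intensities of 4517, 3951 and 3877 in TIG1A cells, 4114, 3715 and 3835 in TIG1B cells and 4976, 6994 and 6973 in control cells. All arrays of both lines lay below all control arrays, control array 1 being the nearest. The differences were -0.60 in TIG1A cells (SE 0.17, 95% interval -1.0 to -0.21, adjusted p = 0.0761) and -0.68 in TIG1B cells (-1.08 to -0.29, adjusted p = 0.0915), and neither passed. PSMD2, the partner scaffold of PSMD1, differed by 0.27 and 0.345, and PSMD8 (Rpn12) by 0.25 and 0.26. The ubiquitin receptor PSMD4 (Rpn10) and the deubiquitinase PSMD14 (Rpn11) differed by 0.14 and 0.06 in TIG1A cells and by 0.07 and 0.11 in TIG1B cells. PSMD6, PSMD11 and PSMD12 lay between -0.05 and 0.285 in both lines. A dim probe set of PSMD4, below the array median on 7 of 9 arrays, gave -2.77 in TIG1A cells (SE 0.76, adjusted p = 0.0712), against 0.14 to 0.23 on the other 3 probe sets of PSMD4.

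**Figure D3:**
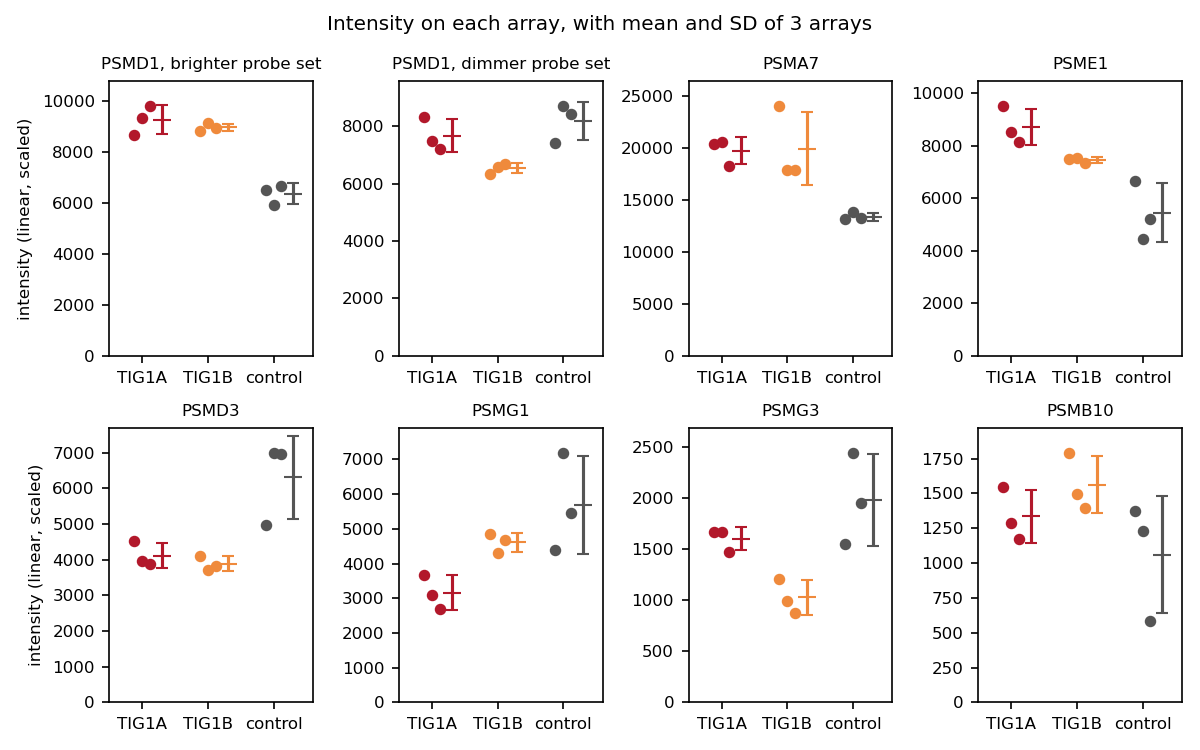
Linear scaled intensity on each array for 7 proteasome genes, with both probe sets of PSMD1, as points in TIG1A, TIG1B and control cells, beside the mean and SD of 3 arrays. The brighter probe set of PSMD1, PSMA7 and PSME1 are higher in both TIG1 lines and PSMD3 lower, PSMG1 is lowest in TIG1A cells and PSMG3 in TIG1B cells, and the dimmer probe set of PSMD1 is not higher in either line.

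The 7 assembly chaperones had the lowest medians among the larger groups, at 0.04 in TIG1A cells and 0.01 in TIG1B cells, and they held the lowest member of each line. PSMG1 (PAC1, which with PSMG2 builds the alpha ring, chromosome 21, 39174769 to 39183514) had intensities of 3681, 3097 and 2681 in TIG1A cells, 4850, 4313 and 4666 in TIG1B cells and 4397, 7184 and 5457 in control cells. TIG1A arrays lay below all others, and TIG1B and control arrays overlapped. The log2 difference of PSMG1 was -0.83 in TIG1A cells (SE 0.21, 95% interval -1.31 to -0.35, adjusted p = 0.0577) and -0.27 in TIG1B cells (adjusted p = 0.522), and TIG1A differed from TIG1B cells by -0.56 (adjusted p = 0.31). PSMG2, its partner, differed by 0.04 and 0.03.

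PSMG3 (PAC3, chromosome 7, 1567332 to 1570032) had intensities of 1665, 1662 and 1471 in TIG1A cells, 1209, 996.4 and 876.5 in TIG1B cells and 1548, 2439 and 1948 in control cells. TIG1B arrays lay below all others, and TIG1A and control arrays overlapped. The difference of PSMG3 was -0.285 in TIG1A cells (adjusted p = 0.42) and -0.93 in TIG1B cells (SE 0.20, 95% interval -1.40 to -0.46, adjusted p = 0.0667), and TIG1A exceeded TIG1B cells by 0.65 (SE 0.20, adjusted p = 0.244). Its neighbours moved with it. Of the 20 nearest tested genes, 19 lay below control cells in TIG1B cells (median -0.95) and 13 in TIG1A cells (median -0.14). Along chromosome 7 from FAM20C to OSBPL3, 91 of 99 genes other than PSMG3 lay below control cells in TIG1B cells (median -0.75), against 54 in TIG1A cells (median -0.05). The part of this stretch in the value of PSMG3 was not tested. Of the 20 nearest genes of PSMG1, 14 lay below control cells in TIG1A cells (median -0.34) and 10 in TIG1B cells (median 0.01). Between the lines, 18 of these 20 were lower in TIG1A than in TIG1B cells (median -0.28). Of the 20 nearest genes of PSMD3, 11 lay below control cells in TIG1A cells (median -0.19) and 15 in TIG1B cells (median -0.15). The part of these neighbourhoods in the values of PSMG1 and PSMD3 was not tested.

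PSMG4 (PAC4), the partner of PSMG3, differed by -0.05 in TIG1A and 0.05 in TIG1B cells. The chaperones of the cap base PSMD5, PSMD9 and PSMD10 lay between -0.145 and 0.13 in both lines, and none of them passed. A dimmer probe set of PSMD10 gave 0.42 in TIG1A cells (adjusted p = 0.135) and 0.29 in TIG1B cells (adjusted p = 0.353). On that probe set the arrays of both lines lay above all control arrays.

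More than 1 probe set passed the filter for 18 of the 39 genes. All probe sets of a gene had the same sign in 10 of the 18 for TIG1A against control cells, 12 for TIG1B against control cells and 12 for TIG1A against TIG1B cells. The median range between the probe sets of 1 gene was 0.29, 0.215 and 0.15 on the log2 scale in these comparisons, larger than the median difference of the members in each. Over all 68 tested probe sets 1 rose and 1 fell in TIG1A cells, and none passed in TIG1B cells.

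The upward shift of the members was carried unevenly by the arrays. The median deviation of the 39 genes from their 9-array mean was 0.124, 0.018 and -0.029 in TIG1A cells, 0.170, 0.025 and -0.043 in TIG1B cells and -0.160, -0.030 and -0.070 in control cells. The arrays numbered 1 of both TIG1 lines, with the highest GAPDH and the lowest actin ratios, were the highest, and control array 1 was the lowest. The place of the TIG1 arrays depended on the scaling, since with median centring the deviations were 0.163, 0.173 and -0.040 in TIG1A cells, 0.103, 0.114 and 0.062 in TIG1B cells and -0.281, -0.071 and -0.218 in control cells, where array 2 was highest in both TIG1 lines and control array 1 still lowest. The bright genes followed the same order of extremes at a smaller size, with 0.060, 0.014 and 0.013 in TIG1A cells, 0.085, 0.024 and -0.018 in TIG1B cells and -0.099, -0.024 and -0.051 in control cells. Among the role groups of more than 1 gene, the ATPases had the furthest deviations, at 0.329 and 0.324 on the arrays numbered 1 of TIG1A and TIG1B cells and -0.354 on control array 1. Without the arrays numbered 1 of both TIG1 lines, the members' medians were 0.087 for TIG1A and 0.10 for TIG1B cells against control cells, and no gene passed. Without control array 1 they were 0.075 and 0.083, against 0.139 and 0.129 with all arrays. The part of RNA quality in this shift was not tested.

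**Figure D4:**
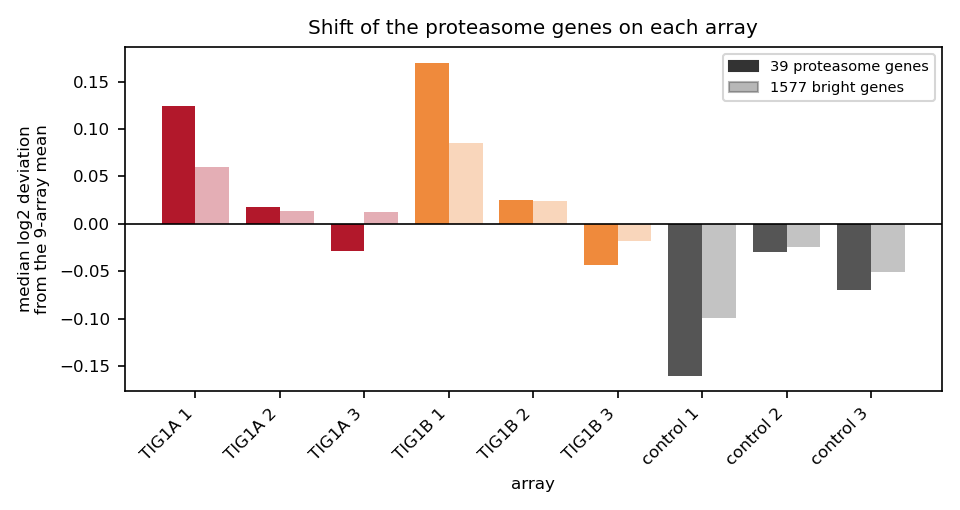
Median log2 deviation from the 9-array mean on each array, for the 39 proteasome genes (full colour) and the 1577 bright genes (pale), in TIG1A, TIG1B and control cells. Array 1 of each TIG1 line stands highest at 0.124 and 0.170 and control array 1 lowest at -0.160, and the bright genes have the same extremes at a smaller size.

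Other genes of the ubiquitin-proteasome system, listed by role, were measured for 21 of 27, and none passed in any comparison. In TIG1A cells 10 lay above and 11 below control cells (median -0.09), in TIG1B cells 9 above and 12 below (median -0.03), and the median between the lines was -0.03. SEM1, a small cap subunit, read 13400, 10630 and 10430 in TIG1A cells, 13260, 10810 and 11020 in TIG1B cells and 8309, 8584 and 8685 in control cells. Both lines lay above control cells, by 0.42 (adjusted p = 0.139) and 0.45 (adjusted p = 0.176). UCHL5, a deubiquitinase of the cap, read 1832, 2505 and 1834 in TIG1A cells, 3321, 3609 and 3757 in TIG1B cells and 1796, 2422 and 2320 in control cells. TIG1B arrays alone stood apart, by 0.72 from control cells (adjusted p = 0.098), and TIG1A differed from TIG1B cells by -0.81 (adjusted p = 0.136).

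NFE2L1, the activator of proteasome genes, differed by -0.435 in TIG1A cells (adjusted p = 0.129) and -0.216 in TIG1B cells (adjusted p = 0.489). UBQLN4 is a shuttle that brings ubiquitinated proteins to the proteasome. It differed by -0.74 in TIG1A cells (adjusted p = 0.0915) and -0.55 in TIG1B cells (adjusted p = 0.247), with both lines below all control arrays. ZFAND2A, a gene on chromosome 7 for a stress-induced proteasome-associated protein, differed by -0.96 in TIG1B cells (adjusted p = 0.0701). Between TIG1A and TIG1B cells ZFAND2A differed by 1.00 (adjusted p = 0.114). The stretch described for PSMG3 is on the same chromosome, with medians of -0.75 in TIG1B cells and 0.75 between the lines. Only PSMG3 was left out of these medians, so ZFAND2A was not set apart from them. The part of that stretch in the value of ZFAND2A was not tested. POMP, the maturation factor of the core, differed by 0.04 and 0.15, and the ubiquitin receptor ADRM1 by -0.18 and -0.23.

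Of the 8 genes that share only the name, 6 passed the filter and none was called. PSME3IP1, which encodes a protein that binds PSME3, read 2977, 2698 and 2789 in TIG1A cells, 2776, 2666 and 2860 in TIG1B cells and 2053, 2046 and 2155 in control cells. Neither line overlapped control cells, with differences of 0.44 (adjusted p = 0.066) and 0.41 (adjusted p = 0.122). PSMC3IP, a recombination factor, differed by -0.36 and 0.13. The other 6 are non-coding genes beside or antisense to proteasome genes, PSMA3-AS1, PSMB8-AS1, PSMD14-DT, PSMD6-AS2, PSMD7-DT and PSMG3-AS1, of which PSMD7-DT and PSMG3-AS1 did not pass the filter. PSMA6 and PSME2 were on probe sets with several symbols and PSMB11, PSMC5, PSMD7 and PSMD13 were not analysed here.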

How the data were processed

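The deposited signal intensity of each probe set was made by the authors with GeneChip Operating System, scaled globally to a target of 500, and is linear. Replicates were not pooled. The paper's rescaling in GeneSpring is not in these values. In place of detection calls, a probe set was kept where 2 or more of the 3 arrays of a group reached the array's 50th percentile (29977 of 54675). Intensities under 1 were set to 1 before log2. A mean per group was fitted to all 9 arrays with limma 3.58.1 in R 4.3.3 (residual degrees of freedom 6, prior 1.84 in the median), and p-values were adjusted by Benjamini-Hochberg over all kept probe sets at 0.05; every adjusted p is from this fit unless another is named. Differences are log2, on values after the floor. The number of arrays limits the precision, and the 3 samples of a clone measure the spread within that clone. The fit was tested on simulated data.

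The array annotation gave 1 symbol for 41097 probe sets, several for 1801 and none for 11777; all 49 genes were matched to the GRCh38.p14 gene table, and 62 control probe sets were set aside. Mean log2 intensity over the arrays chose the brightest probe set. Members and lists were chosen with earlier results of these data known, the lists by role. Named with values were the members past the threshold, those with the highest and lowest differences or the smallest p, the leading member of each subgroup and the immune forms; other genes were chosen after their values were seen. One further gene is not reported here. The series description gives MFP as micromolar and overnight, the labels and the paper 5 nM for 24 h, which was taken.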

Additional observations from a re-analysis of the deposited data

How the results depend on the processing

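The count of proteasome genes called in TIG1A against control cells was 1 and was sensitive to the processing. It was 3 with median centring (PSMA7, PSMD1 and PSME1 up) and 3 with an offset of 50 (PSMD1 and PSME1 up, PSMG1 down), 6 with a filter at the 75th percentile and 6 with a trended, robust prior (PSMA7, PSMB6, PSMD1 and PSME1 up, PSMD3 and PSMG1 down), 2 with probe sets averaged per gene (PSME1 up, PSMG1 down), and 0 with no filter, with the 6 arrays of the comparison alone, with the methods' t-test after Benjamini-Hochberg or at their unadjusted threshold with 2-fold, and without the arrays numbered 1 of both TIG1 lines, the last chosen after seeing the data. Quantile normalization gave 1, PSMG1 in place of PSMD1. With 1 array left out it ranged from 0 to 4, the 4 without control array 1 (PSMD1 and PSME1 up, PSMD3 and PSMG1 down) and 0 without any of the others. In TIG1B cells the count of 0 became 1 with the offset (PSMG3 down), 4 with the stricter filter and 4 with the trended, robust prior (PSMA7 and PSMD1 up, PSMD3 and PSMG3 down), and 0 to 2 with 1 array left out, the 2 without control array 1 (PSMD3 and PSMG3 down). Between TIG1A and TIG1B cells it was 0 in all alternatives run. The cause of these changes was not tested.

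With the replicate number as a block the count was 0 in TIG1A cells. Correlations between same-numbered arrays lay between -0.0369 and 0.192, the highest for the arrays numbered 1 of TIG1A and TIG1B cells. Between either of these and arrays 2 and 3 of the other TIG1 line they lay between -0.126 and -0.104. Whether the numbers mark samples handled together was not tested. Median centring moved the median of all kept probe sets from -0.04 to 0.12 in TIG1A and from -0.03 to 0.12 in TIG1B cells against control cells, and that of the members to 0.303 and 0.275. Quantile normalization gave 0.07 and 0.064 for the members and -0.006 and 0.010 for all probe sets, a smaller distance than without it. Elsewhere the members' medians were 0.07 to 0.18 in TIG1A cells, 0.06 to 0.16 in TIG1B cells and -0.065 to 0.04 between the lines. PSMC2 reversed between TIG1A and TIG1B cells, at -0.098 with probe sets averaged (0.095 on the brightest) and from -0.003, without TIG1A array 1, to 0.23, without TIG1B array 1. Of 700 values for 35 pairs of gene and comparison, 652 kept direction and side of the threshold, 31 passed it, 15 lost it (all PSMD1 in TIG1A cells, adjusted p 0.0571 to 0.215) and 2 reversed.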
